A study of Mus musculus with 192 samples.

Results

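The comparison described here sets mouse dendritic cells given cGAMP and CpGB together against cells given each of them alone. It rests on 9 libraries, which are 3 of the series' 64 groups of 3 libraries, each group chosen by the ligands its label names. Bone marrow of female C57BL/6J mice aged 6 to 8 weeks was grown into dendritic cells with 15 ng/mL GM-CSF, the cells were plated at 100000 per well, and RNA was taken after 6 hours with the ligands. One group of 3 libraries received 3',3'-cGAMP, one received CpGB and one received both, called the pair below. A control group of 3 libraries, Ctrl, is given as background. The labels give no dose and do not say what Ctrl received. Nor do they say whether the 3 libraries of a group came from separate mice or cultures. The p-values therefore measure the spread between libraries of a group, pooled over all 64 groups, and that spread may be technical.

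Cyclic GMP-AMP is a dinucleotide that binds STING, a protein of the endoplasmic reticulum encoded by Tmem173. STING recruits the kinase TBK1, which activates IRF3, and IRF3 drives transcription of interferon beta. DNA with unmethylated CpG motifs, of which class B is one design, is known as a ligand of Toll-like receptor 9 in endosomes, which signals through MyD88 to NF-kB and so to inflammatory cytokines. Secreted interferon beta acts on its receptor to switch on interferon-response genes, and dendritic cells that sense both kinds of signal mature, secrete cytokines and prime T cells. Expression is given as CPM, the deposited molecule counts of a gene scaled to a common total per library with adjusted library sizes. Differences are log2 fold changes. The value after ± is an approximate standard error (SE), the size of the log2 fold change divided by the square root of the F statistic of its test. A gene was called changed when its adjusted p was under 0.05 and its difference was at least 2-fold.

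Totals were low, from 129627 to 188874 counts per library with the pair, 107471 to 167311 with cGAMP, 98306 to 212946 with CpGB and 61823 to 89530 in Ctrl, so genes of a few CPM rest on single counts. The share of counts in ribosomal protein genes was 3.07 to 3.26% with the pair, 3.69 to 3.93% with cGAMP, 3.74 to 4.18% with CpGB and 5.35 to 5.62% in Ctrl, and the share in the 10 most abundant genes was 20.0 to 20.7% with the pair against 17.1 to 17.7% with cGAMP and 18.1 to 18.6% with CpGB. The part of these shares in the results was not tested. Dendritic cell markers were present: Cd74 held 412 counts, H2-Ab1 753 and Itgax 138 over the 3 pair libraries, whereas the conventional dendritic cell genes Flt3 and Zbtb46 held 3 and 2. The macrophage genes Lyz2 (2814 counts with the pair) and Csf1r (284 counts) were present as well, as were the neutrophil genes S100a8 (93 counts) and S100a9 (156 counts). The neutrophil list summed to 710.9 to 917 CPM with the pair, 503 to 771 with cGAMP and 669 to 805 with CpGB, and the macrophage list to 7375 to 8728, 9086 to 9342 and 9830.2 to 10313 CPM, and their part in the results was not tested. The lists of B cell and of T or NK cell genes held 0 counts in the pair libraries, as did the erythroid list, and the mast cell list held at most 2 counts a group. Siglech, which marks plasmacytoid dendritic cells, held 0 counts in the 9 libraries, although the list of that cell type summed to 179 to 263 CPM with the pair, 129 to 178 with cGAMP and 59.9 to 107 with CpGB, nearly all of it Tcf4 (87, 65 and 41 counts), and its part in the results was not tested. In bulk RNA, a change in the number of cells and a change in RNA per cell cannot be told apart. One library used later, labelled HMW + cGAMP + CpGB replicate 1, stands apart from the other libraries of its group. Over 799 genes its correlation was 0.978 with the SeV + CpGB group and 0.936 with its own group, which ranked 13th. Counts of genes, positions and values of named genes below that use it are therefore given with and without it. The counts repeated with HMW under other processing, given at the end, keep it unless it is the library left out.

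The start regions of 4 genes are shown first because the results turn on them: Tnf and Il6 exceeded both single ligands, Ifnb1 is the interferon gene downstream of STING, and Cxcl3 stayed under CpGB alone. Each is the 250 bases before the gene's start in RefSeq (GRCm38.p6), 5′ to 3′ on the gene's strand. Capitals mark matches on either strand to an NF-kB type motif (GGG, any 5 bases, CC), an interferon-response type motif (GAAA, any 2 bases, GAAA) or an AP-1 type motif (TGANTCA), and overlapping matches run together.
Tnf, chr17:35202008-35202257, minus strand: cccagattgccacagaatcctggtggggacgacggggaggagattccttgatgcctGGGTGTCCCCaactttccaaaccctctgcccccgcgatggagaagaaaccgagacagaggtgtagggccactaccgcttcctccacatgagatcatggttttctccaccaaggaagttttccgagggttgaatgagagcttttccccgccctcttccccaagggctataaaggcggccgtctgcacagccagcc
Il6, chr5:30012864-30013113, plus strand: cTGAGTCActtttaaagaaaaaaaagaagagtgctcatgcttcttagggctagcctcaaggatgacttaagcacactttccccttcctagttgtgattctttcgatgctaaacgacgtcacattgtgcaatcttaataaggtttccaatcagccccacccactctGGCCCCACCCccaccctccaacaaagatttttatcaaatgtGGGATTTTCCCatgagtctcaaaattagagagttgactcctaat
Ifnb1, chr4:88522795-88523044, minus strand: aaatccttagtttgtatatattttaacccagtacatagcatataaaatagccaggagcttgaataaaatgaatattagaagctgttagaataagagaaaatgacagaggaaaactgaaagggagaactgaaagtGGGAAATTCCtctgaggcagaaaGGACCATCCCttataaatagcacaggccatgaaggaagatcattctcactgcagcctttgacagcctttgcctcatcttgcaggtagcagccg
Cxcl3, chr5:90785851-90786100, plus strand: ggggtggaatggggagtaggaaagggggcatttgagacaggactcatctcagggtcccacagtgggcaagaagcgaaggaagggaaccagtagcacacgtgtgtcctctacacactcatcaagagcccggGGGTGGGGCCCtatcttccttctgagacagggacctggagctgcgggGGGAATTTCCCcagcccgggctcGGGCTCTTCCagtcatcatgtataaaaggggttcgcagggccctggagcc
The NF-kB type letters matched once upstream of Tnf, 3 times upstream of Il6, 2 times upstream of Ifnb1 and 5 times upstream of Cxcl3, and the AP-1 type letters matched once, upstream of Il6. The interferon-response type letters, searched as one fixed spacing, matched in none of these 4 windows, which says only that these letters are not there. Of the 35 genes above both single ligands (next paragraph), 25 were in the RefSeq promoter table, and 16 of them (64%) held the NF-kB type letters, against 69.1% of the tested genes and 48.7% of all genes in the table. The corresponding shares were 8%, 4.32% and 3.46% for the interferon-response type letters and 4%, 5.95% and 7.82% for the AP-1 type letters.

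Few of the genes that separated the pair from one ligand were above both of them. Against cGAMP, 337 of 4720 tested genes (7.14%) were called, 207 higher and 130 lower with the pair, and against CpGB 367 (7.78%) were called, 250 higher and 117 lower. That balance depends on the scaling: with library size alone, which moved the median of all genes by -0.19 and -0.21 in the 2 comparisons, 145 were higher and 217 lower against cGAMP, and 173 were higher and 222 lower against CpGB. After centring that scaling on the median of all genes, 179 were higher and 176 lower against cGAMP, and 207 were higher and 175 lower against CpGB. A gene was called above both when the pair exceeded each single ligand by at least 2-fold and the weaker of the 2 tests passed after adjustment. By this rule 35 genes (0.742% of those tested) were above both and 4 (0.0847%) were below both. These counts also depend on the scaling: with library size alone fewer were above both and more below both, as given at the end. In all 35 the lowest pair library exceeded the highest of the 6 single-ligand libraries, as it did for 5.06% of all tested genes. The smaller of a gene's 2 log2 fold changes ran from 1.00 to 4.09 with a median of 1.40. Calcrl (1.02), Gbp6 (1.00) and Kynu (1.00) lay just inside the threshold, and Il1a (0.97), Il12a (0.97) and Il1rn (0.95) just outside it. The same rule gave 69 genes above both for the pair of PAM and cGAMP, 38 for PAM and LPS, 34 for PAM and SeV and 33 for Zymosan and cGAMP. In this fit cGAMP and CpGB ranked 3rd of the 21 pairs, and the pairs were not ranked under other settings. Of the 35, 12 were called under all 19 settings of the processing: A630072M18Rik, Cd40, Edn1, Htra4, Il6, Myo10, Ppp1r15a, Ptgs2, Rnd3, Sdc4, Tnf and Tnfsf15. Counts thinned to equal totals lost 16 of the 35 and DESeq2 lost 13.

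**Figure D1:**
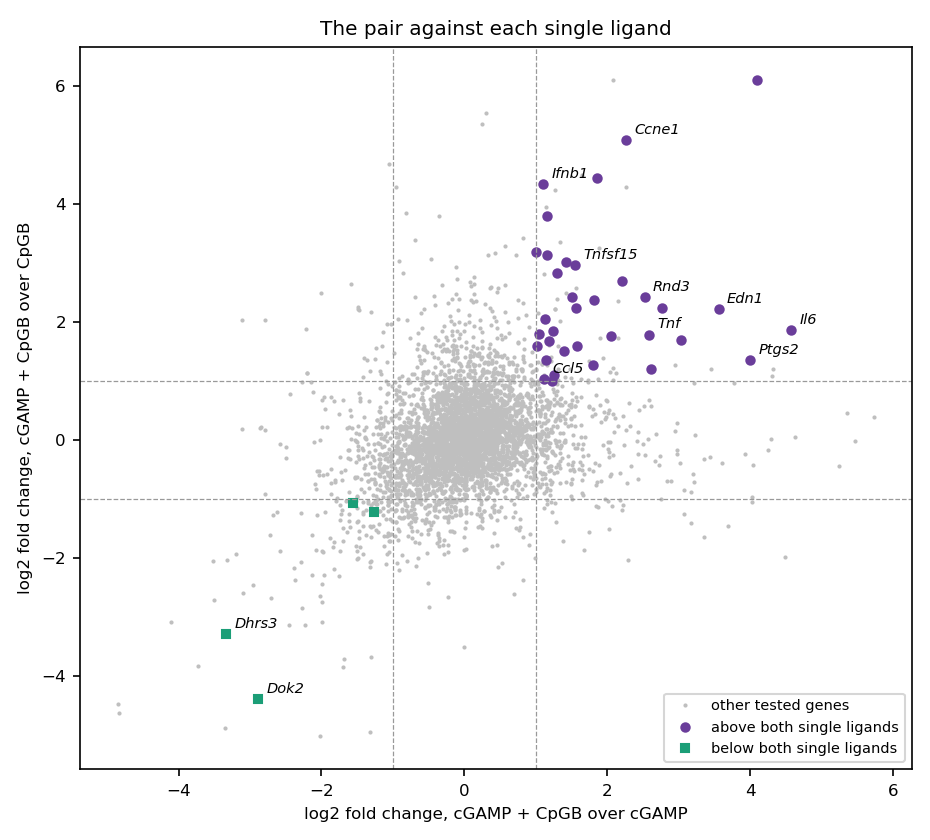
Log2 fold change of the pair over cGAMP (x axis) and over CpGB (y axis) for 4720 genes, 1 point per gene, with dashed lines at 2-fold. The 35 genes above both single ligands lie in the upper right corner, with Il6 at 4.57 and 1.87, and the 4 below both in the lower left, with Dhrs3 at -3.34 and -3.29.

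The cytokine genes Tnf, Il6 and Lta were above both ligands. Tnf, the gene of tumour necrosis factor, read 19798, 21942 and 21578 CPM in the 3 pair libraries, 3796, 3447 and 3363 with cGAMP, 5473, 6699 and 6109.8 with CpGB and 637, 1135 and 797 in Ctrl. The groups did not overlap, and CpGB alone gave more than cGAMP alone. The log2 fold change of Tnf was 2.58 ± 0.16 over cGAMP (edgeR adjusted p = 8.69e-36) and 1.79 ± 0.15 over CpGB (adjusted p = 7.96e-22). Il6 encodes an inflammatory cytokine that also supports B and T cell differentiation. It read 4134, 4086 and 4636 CPM with the pair, 147, 164 and 221 with cGAMP, 1009, 1195 and 1277 with CpGB and 97.0, 99.8 and 182 in Ctrl. The cGAMP libraries overlapped Ctrl, and the CpGB libraries stood between cGAMP and the pair. Il6 was 4.57 ± 0.18 higher on the log2 scale than with cGAMP (edgeR adjusted p = 1.35e-61) and 1.87 ± 0.14 higher than with CpGB (adjusted p = 3.51e-27). Lta, the gene of lymphotoxin alpha, lies next to Tnf on chromosome 17 and read 93.4, 124 and 125 CPM with the pair against 18.3, 23.4 and 0 with cGAMP and 58.2, 35.7 and 23.1 with CpGB. Its pair libraries stood above all the others, on 51 counts in all, and the call over CpGB (1.70, adjusted p = 0.0018) was lost without replicate 2 of every group (1.60, adjusted p = 0.066) or replicate 3 of every group (1.28, adjusted p = 0.122).

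Of the interleukin 12 and 6 families, 5 of 8 listed genes were tested. Of these, 4 were called higher with the pair than with cGAMP and 3 higher than with CpGB, against 4.39% and 5.30% of all tested genes, with medians of 3.77 and 1.08 beside 0.01 and 0.01 over all genes. Il12a, the p35 subunit of interleukin 12, read 280.2, 209 and 281 CPM with the pair, 18.3, 29.2 and 6.14 with cGAMP and 77.6, 138 and 152 with CpGB. Its log2 fold change over CpGB was 0.97 ± 0.25 (adjusted p = 0.00247), under the 2-fold threshold. Il12b, the p40 subunit, read 637, 275 and 245 CPM with the pair, 18.3, 17.5 and 18.4 with cGAMP and 165, 179 and 175 with CpGB. Replicate 1 of the pair was far above the other 2. Without any 1 of the CpGB libraries the difference from CpGB stayed at 1.06 to 1.10 with an adjusted p of 0.0584 to 0.0791, and without pair replicate 1 the difference from CpGB was 0.57 (adjusted p = 0.451) in place of 1.08 (adjusted p = 0.0256). Il27, which encodes a subunit of interleukin 27, read 76.4, 71.9 and 102 CPM with the pair against 36.7, 23.4 and 43.0 with cGAMP and 0, 20.4 and 18.4 with CpGB. All its pair libraries were highest, and only the difference from CpGB was called (2.40 ± 0.56, adjusted p = 0.000685), with 1.29 ± 0.49 over cGAMP (adjusted p = 0.0797). Ebi3, the partner subunit of interleukin 27, was highest with CpGB, with 169.8, 189.6 and 227 CPM with the pair, 64.2, 64.3 and 43.0 with cGAMP and 388, 260.4 and 244 with CpGB. Il10, an anti-inflammatory cytokine, held 5 counts with the pair, 0 with cGAMP and 8 with CpGB, too few to place the pair.

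Ccl2, Ccl3, Ccl4, Ccl5 and Ccl7, 5 of the 17 tested chemokines, were above both ligands (0.742% of all tested genes). Ccl3 and Ccl4 encode the macrophage inflammatory proteins MIP-1 alpha and beta. Ccl3 read 15587, 14502 and 15400.5 CPM with the pair, 2751, 2542 and 2160.5 with cGAMP and 5667, 6668 and 7359 with CpGB. Ccl4 read 21012, 19066 and 22432 CPM with the pair, 9133, 8981 and 9421 with cGAMP and 5463, 6372 and 7525 with CpGB. CpGB was the stronger single ligand for Ccl3 (-1.41 for cGAMP over CpGB, adjusted p = 3.35e-16), and the 2 single ligands differed by less than 2-fold for Ccl4 (0.50). The pair exceeded cGAMP by 2.61 ± 0.15 and CpGB by 1.20 ± 0.14 for Ccl3 (edgeR adjusted p = 1.02e-39 and 3.44e-13), and by 1.18 ± 0.15 and 1.69 ± 0.15 for Ccl4 (adjusted p = 1.42e-11 and 2.37e-20). With library size alone the smaller difference was 0.99 for Ccl3 and 0.99 for Ccl4, just under 2-fold. Ccl5, which encodes the chemokine RANTES, was the most abundant of the 35, with 29009, 23852 and 32008 CPM with the pair, 14130.3, 12206 and 12871 with cGAMP and 11577, 12759 and 16988 with CpGB. The single ligands overlapped and the pair stood above both, by 1.12 ± 0.14 (adjusted p = 1.46e-11) and 1.04 ± 0.14 (adjusted p = 3.78e-10). With library size alone the differences of Ccl5 were 0.92 and 0.82, and that from CpGB was 0.96 with RLE size factors and 0.96 in DESeq2. It was also under 2-fold without pair replicate 3 (0.94), CpGB replicate 1 (0.93) or CpGB replicate 2 (0.98).

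Ccl2 and Ccl7 encode ligands of CCR2, the receptor that draws monocytes out of the bone marrow, and cGAMP was the stronger single ligand for both. Ccl2 read 1044, 726 and 830.4 CPM with the pair, 339, 304 and 325 with cGAMP, 48.5, 123 and 119.9 with CpGB and 27.7, 24.9 and 28.8 in Ctrl. The 4 groups did not overlap. The pair exceeded cGAMP by 1.42 ± 0.22 (adjusted p = 6.72e-08) and CpGB by 3.02 ± 0.26 (adjusted p = 2.77e-21). Ccl7 read 348, 222 and 287 CPM with the pair, 110.0, 140.2 and 123 with cGAMP and 38.8, 10.2 and 18.4 with CpGB. Its difference from cGAMP (1.16, adjusted p = 0.00714) was 1.02 without pair replicate 1 (adjusted p = 0.0579). These genes lie together: in the GENCODE annotation of GRCm38, Ccl2 (chromosome 11, 82035571 to 82037453) neighbours Ccl7 (82045712 to 82047525), and Ccl5 (83525778 to 83530518), Ccl3 (83647844 to 83649355) and Ccl4 (83662584 to 83664683) follow on the same chromosome.

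Over the whole chemokine list, 17 of 18 genes were tested. Against cGAMP 11 were called higher and 1 lower (4.39% and 2.75% of all genes), and against CpGB 9 higher and 1 lower (5.30% and 2.48%), with medians of 1.18 and 1.04. The neutrophil attractants Cxcl1, Cxcl2 and Cxcl3, ligands of CXCR2, were not called higher than with CpGB. Cxcl1 read 781, 464 and 508 CPM with the pair, 27.5, 29.2 and 30.7 with cGAMP and 611, 618 and 687 with CpGB, and the pair overlapped CpGB. Cxcl3 read 1426, 1543 and 1452 CPM with the pair, 138, 117 and 92.1 with cGAMP, 4153, 4339.8 and 3698 with CpGB and 402, 274 and 336 in Ctrl. Every pair library was below every CpGB library (-1.46 ± 0.20, edgeR adjusted p = 4.25e-10), and above cGAMP by 3.70 ± 0.31 (adjusted p = 3.22e-23). Cxcl9 and Cxcl11, T cell attractants and ligands of CXCR3, lay between the single ligands. Cxcl9 read 272, 314 and 173 CPM with the pair, 422, 456 and 540.1 with cGAMP and 48.5, 56.2 and 69.2 with CpGB, a difference of -0.93 ± 0.23 from cGAMP (adjusted p = 0.00142) that was under 2-fold. Cxcl11 read 67.9, 45.8 and 83.6 CPM with the pair, 156, 210.4 and 184 with cGAMP and 19.4, 15.3 and 9.22 with CpGB, and fell against cGAMP (-1.48, adjusted p = 0.00612). Ccl17 and Ccl22, ligands of CCR4, were not called different from CpGB (-0.23 ± 0.28 and 0.10 ± 0.14) and were above cGAMP (3.93 and 2.69).

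Ifnb1, the interferon beta gene, was above both ligands. It read 458, 333 and 436 CPM with the pair, 266, 210.4 and 110.5 with cGAMP, 38.8, 10.2 and 18.4 with CpGB and 13.9, 12.5 and 9.6 in Ctrl. CpGB alone overlapped Ctrl, and every pair library exceeded every cGAMP library. The log2 fold change was 1.10 ± 0.26 over cGAMP (adjusted p = 0.000653) and 4.34 ± 0.39 over CpGB (adjusted p = 1.62e-20). Replicate 3 of cGAMP was the lowest of its group, and without it the difference from cGAMP was 0.80 (adjusted p = 0.0574). It was 0.74 without replicate 3 of every group (adjusted p = 0.166) and 0.91 with library size alone, under 2-fold. Of the 15 interferon-response genes none was called against cGAMP (median 0.12, against 7.14% of all genes called), and 8 were called higher than with CpGB (median 1.31, against 5.30% of all genes). Cxcl10 read 12369, 11448 and 12778 CPM with the pair, 10903, 11026 and 11373 with cGAMP and 902, 2471 and 1831 with CpGB, 0.14 ± 0.16 from cGAMP. Ifit1, which binds foreign RNA, read 5798, 6224 and 5932 CPM with the pair, 5071, 5439.9 and 5825 with cGAMP and 1174, 2027 and 1443 with CpGB, 0.14 ± 0.13 from cGAMP (adjusted p = 0.644). For both, the pair and cGAMP were close and CpGB far below. Ifit3 was lower with the pair than with cGAMP (-0.60 ± 0.17, adjusted p = 0.00777) by less than 2-fold. Of 8 tested genes for type I interferons and their signalling, Ifnb1 was called higher in both comparisons, and Ifnar1, a receptor subunit, was called lower against CpGB (-1.13, adjusted p = 0.000725).

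**Figure D2:**
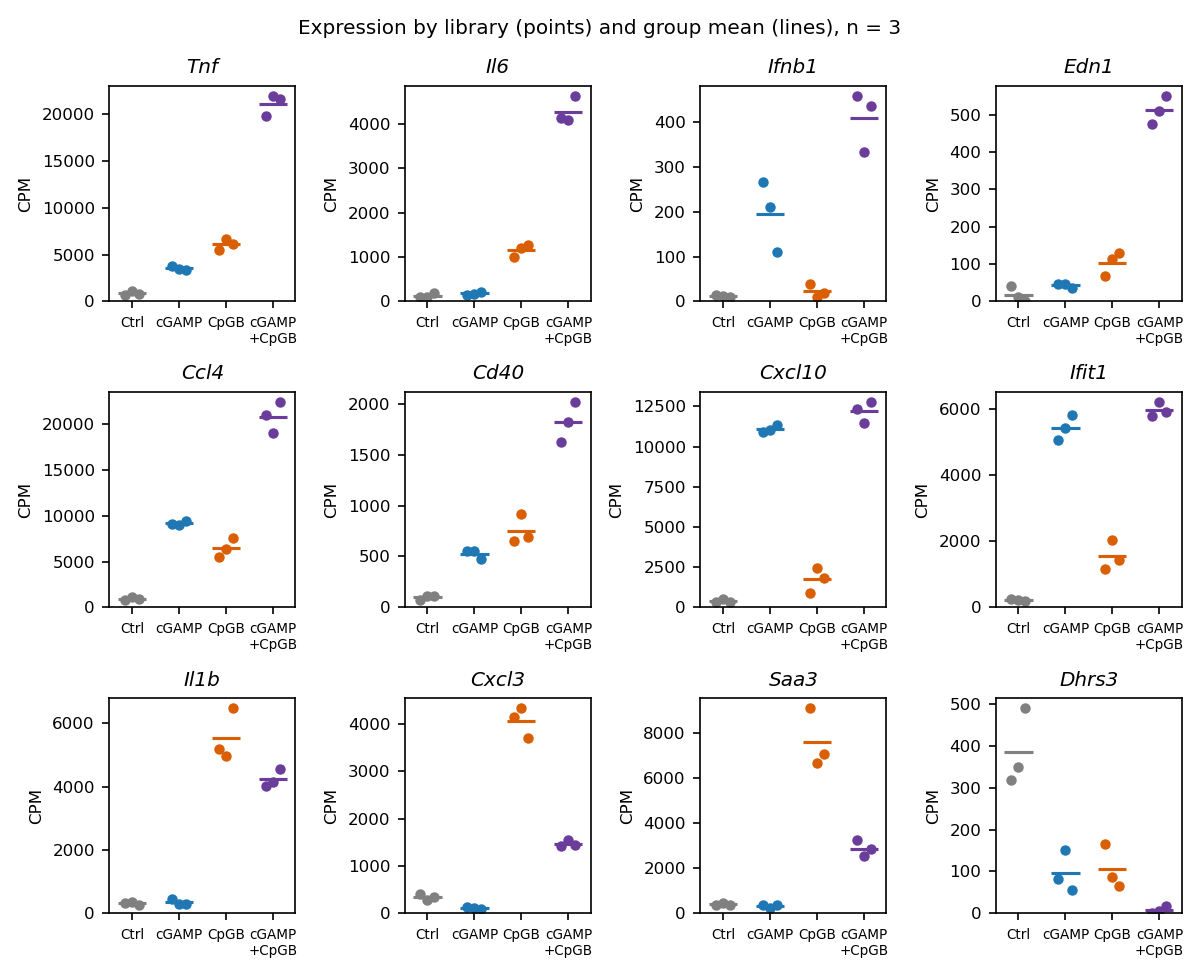
CPM in each library (points) with the group mean (lines) for 12 genes in Ctrl, cGAMP, CpGB and the pair, n = 3 libraries a group, each y axis linear from 0. Tnf, Il6, Ifnb1, Edn1, Ccl4 and Cd40 are highest with the pair, Cxcl10 and Ifit1 lie near cGAMP, Il1b, Cxcl3 and Saa3 lie between the single ligands, and Dhrs3 is lowest with the pair.

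Il1a and Il1b were not among the 35. Of the 11 tested genes of nitric oxide, itaconate and host defence, 4 were called higher than with cGAMP (4.39% of all tested genes), and 2 higher and 2 lower than with CpGB (5.30% and 2.48%). Il1b read 4033, 4139 and 4552 CPM with the pair, 449, 309.7 and 307 with cGAMP and 5182, 4958 and 6488 with CpGB, and was -0.39 ± 0.12 against CpGB (adjusted p = 0.0119), under 2-fold. Il1a read 2895, 2694 and 3190.0 CPM with the pair, 403, 309.7 and 258 with cGAMP and 1164, 1644 and 1595 with CpGB, and was 0.97 ± 0.14 over CpGB (adjusted p = 2.16e-09), so the 2 interleukin 1 genes stood on opposite sides of CpGB. Il1rn, which encodes the antagonist of their receptor, read 4219, 3622 and 4194 CPM with the pair, 1989.8, 1975 and 2136 with cGAMP and 1659, 1961 and 2518 with CpGB. In the inflammatory list of 13 tested genes, which includes Tnf, Il6, Il1a and Il1b, 10 were called higher than with cGAMP (median 3.21, 4.39% of all tested genes called) and 6 higher than with CpGB (median 0.97, 5.30%). Nos2, the inducible nitric oxide synthase, held 16 counts with the pair, 4 with cGAMP and 7 with CpGB, and neither difference was called (adjusted p = 0.124 and 0.22). Irg1 (Acod1), which makes itaconate, was 0.62 ± 0.11 over cGAMP and 1.08 ± 0.11 over CpGB (adjusted p = 1.35e-06 and 4.43e-17).

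Cd40, Tnfsf15, Ptgs2, Edn1 and Ptx3 were also above both ligands. Cd40, the receptor through which T cells license dendritic cells, read 1630.0, 1824 and 2019 CPM with the pair, 550.2, 555 and 479 with cGAMP, 650.2, 914 and 687 with CpGB and 69.3, 112 and 115 in Ctrl. The pair libraries stood above all others, by 1.80 ± 0.16 over cGAMP (edgeR adjusted p = 1.1e-20) and 1.27 ± 0.15 over CpGB (adjusted p = 8.32e-13). Of 10 tested maturation genes 3 were called higher than with cGAMP (4.39% of all tested genes) and 5 higher than with CpGB (5.30%). Cd83 (1.20) and Fscn1 (1.27) were called against cGAMP and not against CpGB, and Cd86, Il15 (1.56), Il15ra and Tnfsf9 (1.49) against CpGB and not against cGAMP. Cd86, a costimulatory ligand of CD28, read 348, 347 and 424 CPM with the pair, 431, 397 and 381 with cGAMP and 29.1, 66.4 and 119.9 with CpGB. Tnfsf15, a ligand of the tumour necrosis factor family that costimulates T cells, read 2343, 2549.9 and 2509 CPM with the pair, 789, 795 and 945 with cGAMP and 155, 342 and 383 with CpGB. It exceeded cGAMP by 1.55 ± 0.20 (adjusted p = 2.53e-11) and CpGB by 2.97 ± 0.22 (adjusted p = 3.51e-27). Ptgs2, the inducible cyclooxygenase of prostaglandin synthesis, read 603, 641 and 729 CPM with the pair, 36.7, 46.7 and 36.8 with cGAMP and 184, 209 and 346 with CpGB. Its groups did not overlap, and the differences were 4.00 ± 0.33 and 1.36 ± 0.22 (adjusted p = 5.34e-24 and 2e-07). Edn1, which encodes the vasoconstrictor endothelin 1, read 475, 510.0 and 549.6 CPM with the pair, 45.8, 46.7 and 36.8 with cGAMP, 67.9, 112 and 129 with CpGB and 41.6, 12.5 and 0 in Ctrl. The pair was 3.56 ± 0.37 over cGAMP (adjusted p = 2.38e-16) and 2.22 ± 0.29 over CpGB (adjusted p = 1.19e-10). Ptx3, a soluble pattern recognition protein, read 1851, 3256 and 1846 CPM with the pair, 972, 1046 and 890.0 with cGAMP and 1155, 1082 and 1014 with CpGB. Pair replicate 2 of Ptx3 was the highest, and without it the differences were 0.93 and 0.78, under 2-fold.

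Of the 35, 21 were called higher with cGAMP than in Ctrl (11.7% of all tested genes), 18 with CpGB (10.8%), 13 with both and 9 with neither, and 34 were called higher with the pair than in Ctrl, where 26.2% of all tested genes were called, 15.9% higher and 10.3% lower. These counts share the Ctrl libraries. Rnd3, which acts on the actin cytoskeleton, read 246, 307 and 203 CPM with the pair, 73.4, 35.1 and 30.7 with cGAMP, 38.8, 40.8 and 55.3 with CpGB and 27.7, 37.4 and 57.6 in Ctrl. The single ligands overlapped Ctrl, and the pair exceeded them by 2.52 ± 0.37 and 2.42 ± 0.35 (edgeR adjusted p = 5.71e-09 and 3.73e-09). Myo10, the myosin of filopodia tips, read 874, 902 and 645 CPM with the pair, 248, 234 and 319 with cGAMP, 204, 322 and 244 with CpGB and 305, 187 and 221 in Ctrl. It showed the same order, with 1.58 ± 0.21 and 1.60 ± 0.21 (adjusted p = 1.83e-10 and 4.38e-11). Htra4, a secreted serine protease, read 458, 569 and 514 CPM with the pair, 128, 76.0 and 36.8 with cGAMP, 77.6, 138 and 96.8 with CpGB and 55.4, 24.9 and 19.2 in Ctrl. The single ligands overlapped each other, and the pair exceeded them by 2.77 ± 0.33 and 2.25 ± 0.29 (adjusted p = 5.9e-13 and 8.28e-11). Ppp1r15a (GADD34), which brings a phosphatase to the stress-regulated translation factor eIF2 alpha, read 348, 275 and 269 CPM with the pair, 64.2, 117 and 117 with cGAMP, 29.1, 81.7 and 41.5 with CpGB and 55.4, 37.4 and 19.2 in Ctrl. Sdc4, a cell surface heparan sulfate proteoglycan, read 1740.3, 3119 and 2366 CPM with the pair, 834, 672 and 964 with cGAMP, 466, 495 and 553 with CpGB and 83.1, 274 and 202 in Ctrl, where both single ligands were above Ctrl. In both the pair stood clear of all 6 single libraries.

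Ccne1, which encodes cyclin E1 of the entry into S phase, rested on few counts in the CpGB libraries. It read 229, 196 and 239 CPM with the pair, 91.7, 46.7 and 12.3 with cGAMP and 0, 10.2 and 4.61 with CpGB, the last from 3 counts. The ratio of the pair to CpGB was 38.1 with a 95% counting interval of 12.6 to 188, and the log2 difference from cGAMP was 2.26 ± 0.43 (adjusted p = 1.15e-05). Mycl1, a Myc family transcription factor, held 22 counts with the pair, 1 with cGAMP and 0 with CpGB. It was called above both in 14 of the 19 settings. The call was lost after thinning, in DESeq2, and without pair replicate 2, cGAMP replicate 2 or replicate 2 of every group. With the 0 of CpGB set to 3 counts over the group, the pair was 8.63 times CpGB, a ratio that leaves out the counting error of the 22. Against cGAMP the ratio was 22.3 with a counting interval of 3.60 to 918. Intu, a gene of cilium assembly, held 44 counts with the pair, 12 with cGAMP and 2 with CpGB. Without pair replicate 3 its difference from cGAMP was 1.56 (adjusted p = 0.0702) in place of 1.85. Gdf15, a stress-induced cytokine, read 42.4, 39.2 and 114 CPM with the pair, 18.3, 17.5 and 12.3 with cGAMP and 19.4, 15.3 and 23.1 with CpGB. Pair replicate 3 was far above the other 2, and without it the difference was 1.32 over cGAMP (adjusted p = 0.292). A630072M18Rik read 161, 209 and 167 CPM with the pair, 45.8, 40.9 and 30.7 with cGAMP and 29.1, 25.5 and 27.7 with CpGB. GENCODE lists it as an antisense transcript, and since the sources used here do not say whether strand was used in counting, reads of the gene on the other strand cannot be told apart from it. Rnaset2b, a ribonuclease gene with a near-identical copy, was 1.81 and 2.38 above the single ligands, uncertain for that reason.

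The other genes above both ligands include a receptor subunit, enzymes and regulators of several kinds. Calcrl, a subunit of the adrenomedullin receptor, read 323, 320.4 and 448 CPM with the pair, 193, 152 and 203 with cGAMP and 126, 133 and 106 with CpGB. Kynu, a tryptophan-degrading enzyme, read 331, 340.0 and 352 CPM with the pair, 211, 129 and 184 with cGAMP and 9.7, 51.1 and 36.9 with CpGB. Polr2g, an RNA polymerase II subunit, read 467, 608 and 526 CPM with the pair, 303, 234 and 203 with cGAMP and 58.2, 40.8 and 78.4 with CpGB. In all 3 the mean was lowest with CpGB and highest with the pair, although for Calcrl the single ligands were not called different (0.58, adjusted p = 0.102). The smaller log2 fold change was 1.05 for Sec24b of the vesicle coat COPII, 1.24 for the Polycomb gene Pcgf5, 1.13 for the arrestin-domain gene Arrdc4 and 1.29 for Cst7, a protease inhibitor. It was 1.40 for the lipid flippase Atp10a, 1.14 for the kinase Pim1 and 1.00 for the guanylate-binding protein Gbp6, which belongs to a family of similar genes. Of the 19 settings, Atp10a was called in 3, Gdf15 and Pim1 in 4, Kynu in 7, and Ccl7, Cst7 and Gbp6 in 8, the fewest among the 35. Leaving out 1 library ended the call of Atp10a for 7 of the 9 libraries, of Pim1 and Gdf15 for 6 each, of Ccl7 and Kynu for 5 each, of Cst7 and Gbp6 for 4 each, and of Calcrl for pair replicate 3 or cGAMP replicate 2. It also ended the call of Arrdc4, Pcgf5 and Sec24b for 2 libraries each and of Polr2g for 1. Sec24b was called in 11 of the 19 settings, and DESeq2 lost both Sec24b and Polr2g.

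The pair left 4 genes below both ligands. Dhrs3, a reductase that converts retinal to retinol, read 0, 6.54 and 17.9 CPM with the pair, 82.5, 152 and 55.2 with cGAMP, 165, 86.8 and 64.6 with CpGB and 319, 349 and 489.7 in Ctrl. Either ligand alone was below Ctrl, and the pair held 4 counts over its 3 libraries. The log2 fold change was -3.34 ± 0.62 against cGAMP and -3.29 ± 0.62 against CpGB (adjusted p = 8.84e-06 and 1.12e-05). Dok2, an adaptor that restrains tyrosine kinase signalling, read 8.49, 6.54 and 11.9 CPM with the pair, 73.4, 46.7 and 98.2 with cGAMP, 311, 153 and 189 with CpGB and 360.1, 337 and 442 in Ctrl. Its fall was -2.89 ± 0.72 against cGAMP and -4.38 ± 0.57 against CpGB (adjusted p = 0.00162 and 6.06e-11), on 4 counts with the pair. Lgmn, a lysosomal protease that processes antigens, read 84.9, 65.4 and 83.6 CPM with the pair, 174, 193 and 190.3 with cGAMP and 146, 199 and 184 with CpGB. Lrrc33 (Nrros), which limits reactive oxygen in phagocytes, read 102, 65.4 and 89.6 CPM with the pair, 220.1, 286 and 239 with cGAMP and 136, 199 and 179.8 with CpGB. The pair libraries lay under all single libraries in each of the 4, as they did for 2.48% of all tested genes. None of the 4 was called in all 19 settings: Dhrs3 was called in 18, Dok2 in 15, Lgmn in 14 and Lrrc33 in 11. Lrrc33 lost its call against CpGB without pair replicate 2 (-0.89, adjusted p = 0.0857) and without CpGB replicate 2 (-0.95, adjusted p = 0.058). The combined call was also lost for Lrrc33 without pair or CpGB replicate 3, for Dok2 without pair replicate 2 or cGAMP replicate 3, for Lgmn without pair or CpGB replicate 2, and for Dhrs3 without replicate 2 of every group. The combined call adjusts the larger of both p-values, and without those libraries both differences of Dok2, Lgmn and Dhrs3 stayed past 2-fold.

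Between cGAMP and CpGB alone, 649 genes (13.8%) were called, 349 higher with cGAMP (7.39%) and 300 higher with CpGB (6.36%). The place of the pair between them is given on the log2 scale as a position, where 0 is the lower single ligand and 1 the higher. The median position was 0.69 for the 349 genes (quartiles 0.39 and 0.93) and 0.70 for the 300 (quartiles 0.46 and 0.91). The SD over the 3 pair libraries was 0.0134 and 0.0184, which leaves out the scaling. The scaling moved these medians by more than that SD, as given at the end. The pair was closer to the higher ligand in 229 of 349 genes and in 219 of 300. In calls, 132 of the 349 separated the pair from CpGB and not from cGAMP, 68 from cGAMP and not from CpGB, 14 from both and 135 from neither, and of the 300, 110 separated it from cGAMP and not from CpGB, 42 from CpGB and not from cGAMP, 15 from both and 133 from neither. The classes were formed from the same single-ligand libraries, so these positions are a description with no test. In the HMW libraries the same genes had median positions of 0.605 and 0.759 with all 3 triplet libraries, and of 0.68 and 0.68 without the library that stands apart.

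The same genes were then split by what each ligand did against Ctrl. The median position, now with 1 at the active ligand, was 0.83 for the 134 genes raised by cGAMP and not called with CpGB, and 0.79 for the 137 raised by CpGB and not called with cGAMP. It was 0.63 for the 59 genes lowered by cGAMP and 0.76 for the 60 lowered by CpGB, where 5.91% and 6.27% of all tested genes were called lower with cGAMP and with CpGB. In the HMW libraries the same 4 medians were 0.721, 0.875, 0.576 and 0.691 with all 3 triplet libraries, and 0.78, 0.83, 0.77 and 0.69 without the library that stands apart.

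**Figure D3:**
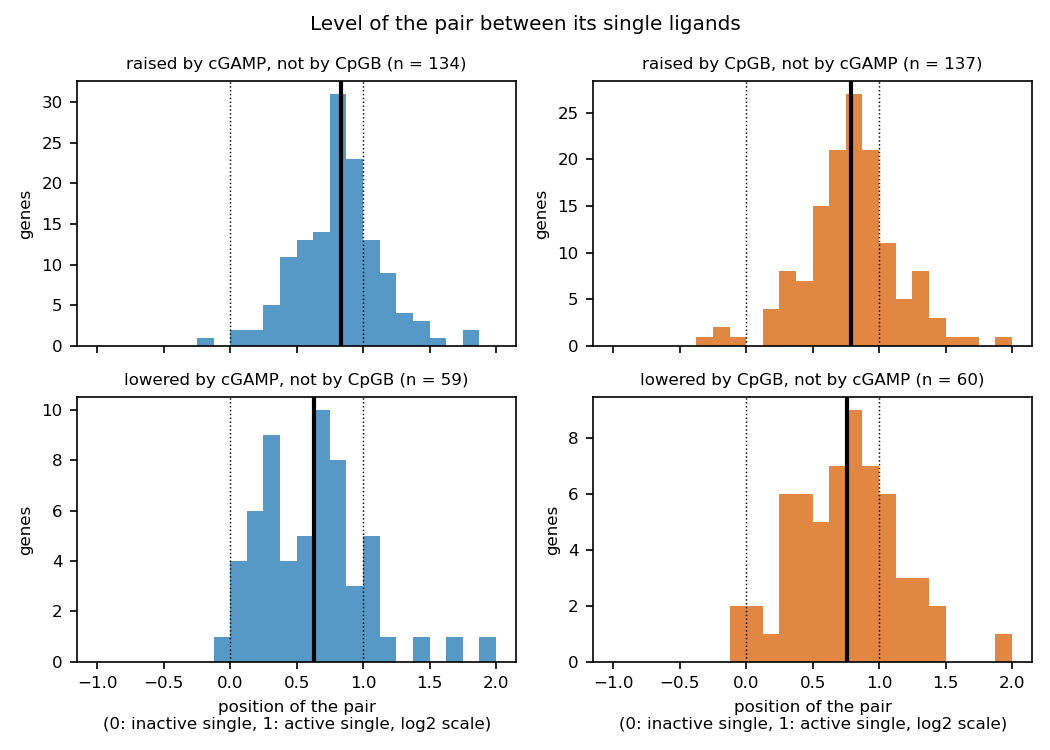
Number of genes (y axis) by position of the pair between its single ligands (x axis, log2 scale; dotted lines at 0, the inactive ligand, and 1, the active one; solid line, median), in 4 classes by each ligand's change against Ctrl. The medians are 0.83 and 0.79 for genes raised by one ligand (upper panels) and 0.63 and 0.76 for genes lowered by one (lower panels).

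Of the genes led by cGAMP, Hopx and Rgcc were called higher with the pair than with CpGB. Hopx, a homeodomain cofactor, read 365, 320.4 and 424 CPM with the pair, 871, 503 and 632 with cGAMP and 9.7, 35.7 and 23.1 with CpGB. Rgcc, a regulator of the cell cycle, read 169.8, 196 and 239 CPM with the pair, 284, 462 and 424 with cGAMP and 9.7, 10.2 and 9.22 with CpGB. Both were far above CpGB (3.85 and 4.30, adjusted p = 7.13e-15 and 5.64e-12) and below cGAMP by less than 2-fold (-0.82 and -0.96). Plau, the urokinase gene, read 67.9, 91.5 and 95.6 CPM with the pair, 193, 298 and 227 with cGAMP and 29.1, 5.11 and 23.1 with CpGB. It differed from both, lower than cGAMP (-1.49 ± 0.35, adjusted p = 0.000932) and higher than CpGB by 2.26 ± 0.59 (adjusted p = 0.00261), the latter 1.76 without CpGB replicate 2 (adjusted p = 0.0544). Il15ra, the receptor chain that presents interleukin 15, read 424, 399 and 460.0 CPM with the pair, 743, 602 and 687 with cGAMP and 136, 117 and 115 with CpGB. Pcna, the sliding clamp of DNA replication, read 484, 556 and 489.9 CPM with the pair, 789, 801 and 994 with cGAMP, 116, 133 and 194 with CpGB and 388, 387 and 547 in Ctrl. With the pair, Pcna was between the single ligands, and the single ligands lay on opposite sides of Ctrl. Of the other genes that the naming rule takes here, Rab19, Entpd1 (CD39), Cdyl2 and Slc37a3 held 1 to 3 counts in all with CpGB, and in each the mean of the pair lay between the single ligands.

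Other genes high with cGAMP were lower with the pair and not called different from CpGB. Tmem37 read 17.0, 6.54 and 29.9 CPM with the pair, 193, 199 and 104 with cGAMP and 9.7, 0 and 4.61 with CpGB, and the pair was lower than cGAMP (-3.12 ± 0.51, edgeR adjusted p = 3.21e-07). Pdxk, the kinase that activates vitamin B6, read 42.4, 13.1 and 23.9 CPM with the pair, 128, 210.4 and 209 with cGAMP, 58.2, 10.2 and 13.8 with CpGB and 208, 187 and 288 in Ctrl. Here cGAMP alone overlapped Ctrl, and the pair was 0.21 ± 0.66 from CpGB and lower than cGAMP (-2.86 ± 0.44, adjusted p = 2.86e-08). Bnip3l, a receptor for the removal of mitochondria, read 25.5, 19.6 and 17.9 CPM with the pair, 147, 129 and 135 with cGAMP and 38.8, 81.7 and 27.7 with CpGB. Tnfrsf26 and Ccnd1 (cyclin D1) held 4 and 3 counts with the pair against 31 and 23 with cGAMP. The call of Ccnd1 was lost without cGAMP replicate 2 (-1.82, adjusted p = 0.343) or pair replicate 3 (-2.15, adjusted p = 0.112). Tmem173, the STING gene itself, held 7 counts with the pair, 29 with cGAMP, 7 with CpGB and 7 in Ctrl. Its fall against cGAMP (-1.99, adjusted p = 0.0225) was lost on leaving out pair replicate 1 (-1.76, adjusted p = 0.0914), pair replicate 3 (-1.79, adjusted p = 0.116) or cGAMP replicate 3 (-1.88, adjusted p = 0.0843).

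Among genes led by CpGB, the acute-phase genes Saa3 and Hp and the neutrophil attractant Cxcl3 were called lower with the pair than with CpGB. Saa3, the serum amyloid A of macrophages, read 3243, 2530.3 and 2832 CPM with the pair, 348, 245 and 368 with cGAMP, 9102, 6658 and 7055 with CpGB and 360.1, 461 and 384 in Ctrl. The pair was below CpGB (-1.40 ± 0.17, edgeR adjusted p = 1.83e-12) and above cGAMP by 3.17 ± 0.22 (adjusted p = 2.58e-30), as for Cxcl3 above. Hp, which encodes haptoglobin, read 255, 124 and 102 CPM with the pair, 91.7, 123 and 110.5 with cGAMP and 437, 408 and 341 with CpGB. Sla, an adaptor that damps receptor signalling, read 119, 65.4 and 35.8 CPM with the pair, 0, 11.7 and 24.6 with cGAMP, 301, 255 and 304 with CpGB and 69.3, 87.3 and 86.4 in Ctrl. It was below CpGB (-2.04 ± 0.31, adjusted p = 2.93e-08), and its rise over cGAMP (2.29, adjusted p = 0.00318) was 1.83 without pair replicate 1 (adjusted p = 0.078). Pou2f2, the transcription factor Oct-2, held 48 counts with CpGB against 1 with the pair and 3 with cGAMP. Stk10, a lymphocyte kinase, read 17.0, 13.1 and 5.97 CPM with the pair, 9.17, 23.4 and 6.14 with cGAMP and 77.6, 71.5 and 78.4 with CpGB. Sqle, of sterol synthesis, and Herpud1, of the unfolded protein response, held 38 counts each with CpGB against 5 and 7 with the pair and 3 and 5 with cGAMP. For these 4 genes no difference from cGAMP was called (-0.23 ± 0.88 for Stk10). Cd300e, Lad1 and Zfp811 had pair means between the single ligands, and Ppfia3 was 0.05 ± 0.41 from CpGB.

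Against cGAMP, where 4.39% of all tested genes were called higher, the genes called higher with the pair included 10 of 13 inflammatory genes and 5 of 15 NF-kB subunits and inhibitors, and 0 of 11 cytosolic sensing genes, a count near the share of all genes. Nfkb1 (1.49), Nfkb2 (1.96), Nfkbib (1.18), Nfkbiz (2.98) and Traf1 (1.50) were the 5. Against CpGB, where 5.30% were called higher, they included 8 of 15 interferon-response genes and 6 of 11 guanylate-binding and immunity-related GTPases, interferon-induced genes that act against intracellular microbes (median 1.00). Tnfaip3 (1.03) was the 1 of 15 NF-kB genes called higher than with CpGB, near the share of all genes. Iigp1 (2.16) and Gbp5 (1.40) were among the GTPases. Of 13 genes of feedback on inflammatory signalling, Socs3 (2.44), Dusp2 (1.79) and Irak3 (1.66) were called higher than with cGAMP. Of the 10 tested genes of the Toll-like receptor 9 pathway, Irak3, which inhibits it, was the 1 called in either comparison, a count near the share of all genes. Tlr9 itself held 0 counts in the 3 groups, which allows up to 3 counts over a group, or 6.15 CPM with the pair before scaling. Genes of MHC class I presentation (12 tested) and class II presentation (7 tested) were not called in either comparison. For lists of this size that is near the share of all tested genes called, 7.14% against cGAMP and 7.78% against CpGB. Their differences ran from 0.04 to 0.88 for class I and from -0.97 to 0.17 for class II. Of 13 glycolysis genes Pfkp was the 1 called (1.33 over CpGB), and of 13 lysosome genes Lgmn was the 1 called, as lower. Both counts are near the shares of all tested genes, of which 2.75% were called lower than with cGAMP and 2.48% lower than with CpGB. Of 12 AP-1 and immediate early genes, Batf (2.33) was higher and Fos (-1.39) lower than with cGAMP, and Jun (1.75) was higher and Fosl2 (-1.59) lower than with CpGB. Each is 1 of 12 in its direction, near those shares of all genes. Of 6 genes of prostaglandin and leukotriene synthesis, Ptgs2 and Ptges (2.09), consecutive enzymes of prostaglandin E synthesis, were higher than with cGAMP and Tbxas1 (-1.29), the thromboxane synthase, was lower. The cytosolic RNA sensor Ifih1 (MDA5) was higher than with CpGB (2.17), and Mrc1, the mannose receptor, was lower than with cGAMP (-1.47).

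**Figure D4:**
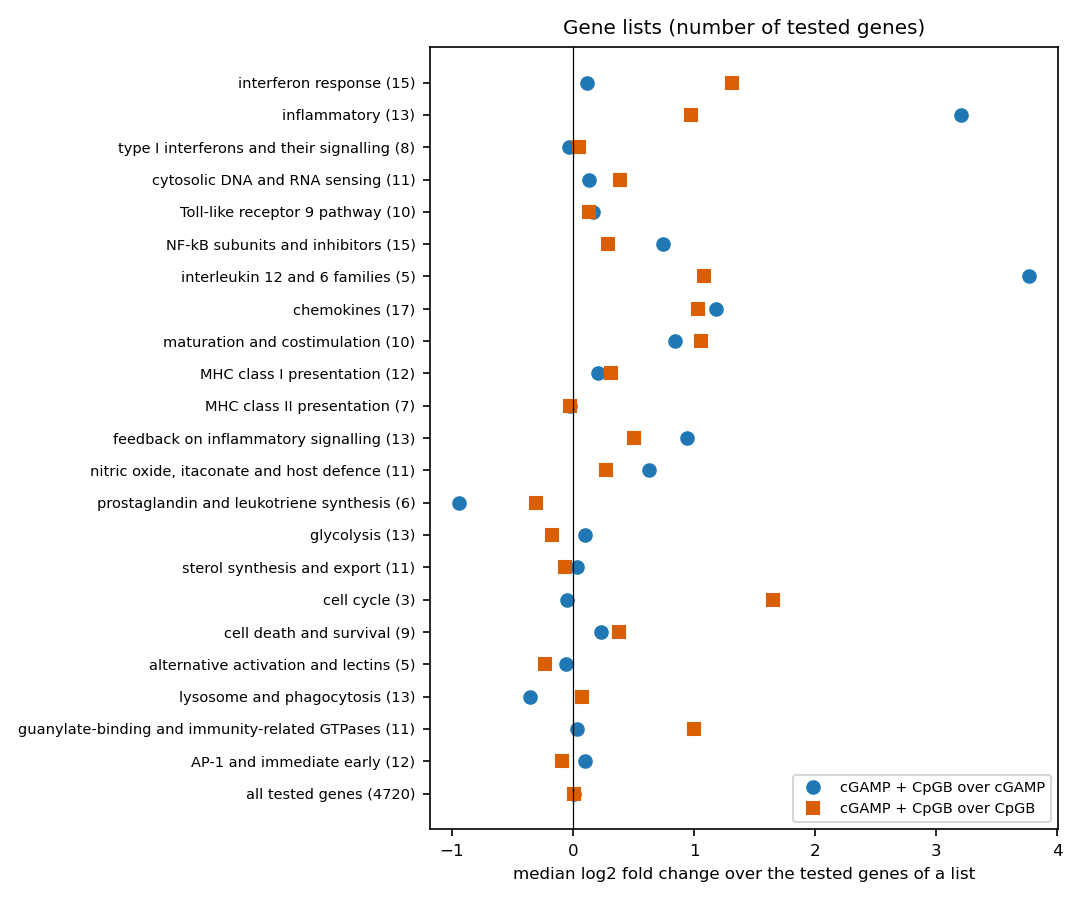
Median log2 fold change of the pair over cGAMP (circles) and over CpGB (squares) for the tested genes of 22 lists, with the number of tested genes in brackets and all 4720 genes in the last row. The inflammatory list stands at 3.21 over cGAMP and 0.97 over CpGB, the interferon-response list at 0.12 and 1.31, and all genes at 0.01 in both.

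Against Ctrl, the log2 effect of the pair was compared with the sum of the log2 effects of the 2 ligands. The interaction, which takes the sum of the single-ligand effects from the effect of the pair, was called at an adjusted p under 0.05 in 288 genes (6.10%), 38 positive (0.805%) and 250 negative (5.30%), a negative value meaning that the log2 level with the pair lies below that sum. For genes that the ligands lower, a negative value is a larger fall. All 15 interferon-response genes were negative, among them Mx1 (-2.77 ± 0.22, edgeR adjusted p = 2.64e-24) and Ifit3 (-3.41 ± 0.36, adjusted p = 3.55e-15). Each ligand alone had raised all 15 against Ctrl. Of the 35 genes above both, 7 had a called interaction, 3 positive and 4 negative. Il6 (1.42 ± 0.38, adjusted p = 0.00588), Rnd3 (2.41 ± 0.76, adjusted p = 0.0333) and Myo10 (1.41 ± 0.37, adjusted p = 0.00432) were positive. Ccl3 (-0.89), Ccl4 (-1.61), Ccl5 (-1.52) and Cd40 (-1.10) were negative, which is a statement on the log2 scale alone. On the linear scale the pair means of these 4 were above the sum of the single-ligand means less Ctrl, at 15163 against 8466 CPM for Ccl3, 20836 against 14694 CPM for Ccl4, 28289 against 24618 CPM for Ccl5 and 1824 against 1179 CPM for Cd40. The SD of that sum over 3 libraries a group was 906, 1075, 3015 and 151 CPM, and the differences were not tested on this scale. Of the interferon-response genes Oasl1 alone was above that sum, at 3701 against 3068 CPM. The others were below it, by little for Cxcl10 (12199 against 12451 CPM) and by more for Ifit3 (2324 against 4305 CPM), also not tested. For Tnf the interaction was -0.25 ± 0.25 (adjusted p = 0.691). The positive interactions of largest size by the naming rule were Arhgap25, Rnf166 and Pikfyve. Arhgap25, a Rac regulator, read 540.2, 461 and 557 CPM in Ctrl and 102, 58.8 and 53.8 with the pair, 73.4, 81.8 and 49.1 with cGAMP and 38.8, 97.0 and 59.9 with CpGB. Each ligand alone lowered it, and the pair overlapped both. The largest negative ones, Phf11a, Tfec and Upp1, held 0 counts in Ctrl, so their fitted sizes are not given.

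The pair was also given together with each of the other 5 ligands, and those libraries share none with the 9. With HMW, the triplet was set against HMW + cGAMP and against HMW + CpGB, 9 further libraries. With all 3 triplet libraries, 19 genes were above both (0.403%), 15 of them among the 35. Without the library labelled HMW + cGAMP + CpGB replicate 1, 34 genes were above both (0.720%), 22 of them among the 35. With SeV, 14 genes were above both (0.297%), 11 of them among the 35. In the remaining 3 settings 4 genes were above both with Zymosan (0.0847%), all 4 among the 35, 2 with LPS (0.0424%), 1 of them among the 35, Ifnb1, and 0 with PAM. At any fold, the genes among the 35 that passed were 17 with HMW (0.784% of all tested genes passed), 25 with HMW without that library (1.40%), 17 with SeV (0.636%), 12 with Zymosan (0.360%), 2 with LPS (0.0636%) and 0 with PAM. Of the 12 genes called in all 19 settings, 10 were called again with HMW without that library, 9 with it, and 6 with SeV. Myo10 and Sdc4 were the 2 not called with HMW without that library, at 0.53 and 0.74 for the smaller difference. With that library they were at 0.28 and 0.40, and Tnfsf15 (0.99) was not called either. The 11 genes called with SeV were all called with HMW without that library, and 8 of them with it, the exceptions being Lta, Polr2g and Tnfsf15: Ccl2, Ccl7, Edn1, Htra4, Intu, Lta, Polr2g, Ppp1r15a, Ptgs2, Tnf and Tnfsf15.

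By gene, Tnf was 2.46 and 1.69 above the 2 HMW groups without that library (2.13 and 1.37 with it), and 2.22 and 1.11 above the 2 SeV groups. Il6 was 4.50 and 1.99 above the HMW groups without it (4.26 and 1.76 with it), and 3.92 and 0.85 above the SeV groups. Edn1 was 3.23 and 2.51 above the HMW groups without it (2.87 and 2.15 with it), and 2.82 and 1.68 above the SeV groups. The first value of each is against the group with cGAMP and the second against the group with CpGB. Ifnb1 was 1.24 above HMW + cGAMP without that library (1.08 with it) and 0.83 above SeV + cGAMP. Of the 4 genes below both, none was called again in any of the 5 settings. Dok2 was -1.10 and -3.10 with HMW without that library (adjusted p = 0.695) and -0.42 and -2.41 with it. Dhrs3 had the lowest adjusted p among them with HMW, at -1.84 and -1.85 without that library (adjusted p = 0.0785) and -1.13 and -1.13 with it (adjusted p = 0.391), and Lgmn was -0.18 and -0.31 both with and without it. The difference between the comparison with HMW and the one without it was tested directly. In edgeR no gene was called, against cGAMP or against CpGB, with 240 and 234 genes at an unadjusted p under 0.05 (5.08% and 4.96% of those tested), and DESeq2 called 0 in each over all libraries, with 168 and 184. Without the library that stands apart, where DESeq2 was not run, edgeR called 0 in each, with 205 and 207. With PAM, whose count was 0, 0 genes separated the triplet from PAM + cGAMP in edgeR and in DESeq2, with 270 at an unadjusted p under 0.05, whereas 670 separated it from PAM + CpGB.

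**Figure D5:**
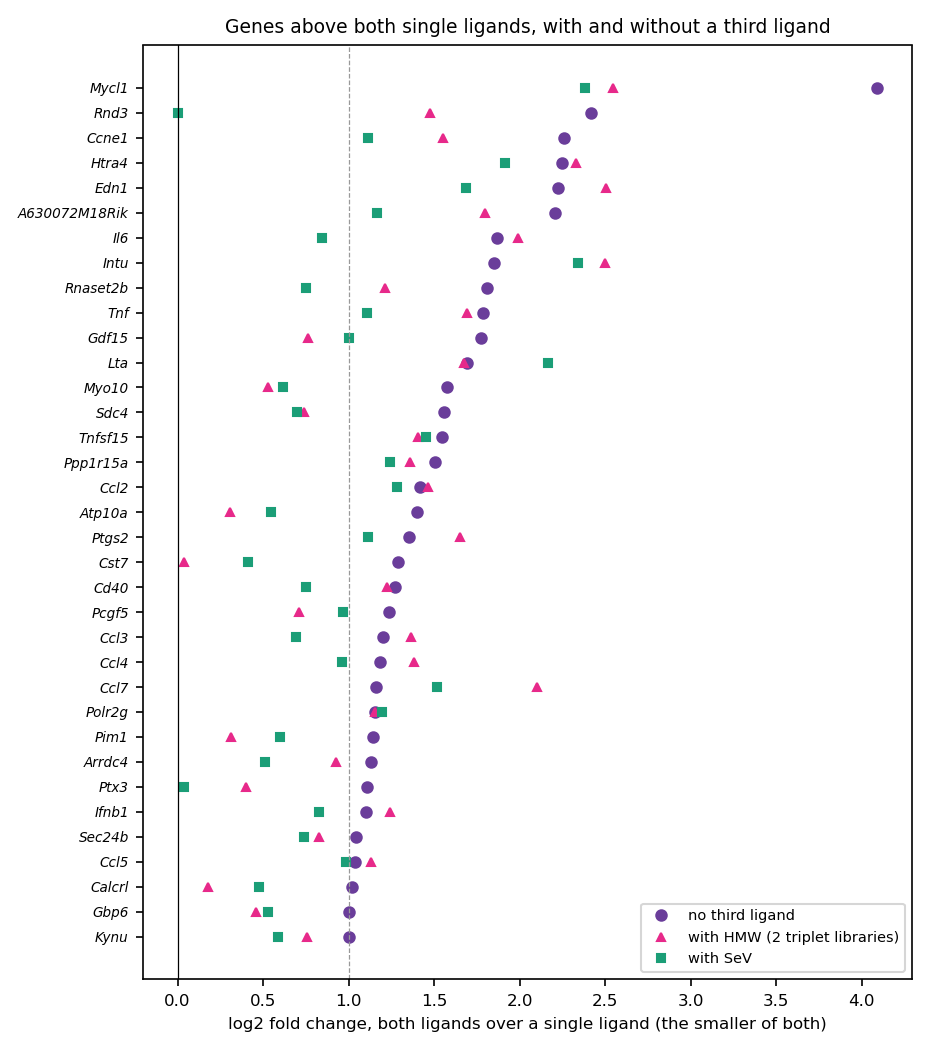
Smaller of the 2 log2 fold changes of both ligands over a single ligand (x axis) for the 35 genes above both (y axis), with no added ligand (circles), with HMW (triangles, 2 triplet libraries) and with SeV (squares); the dashed line is 2-fold. Genes were chosen on the circles; Il6 reads 1.87, 1.99 and 0.85, and Tnf 1.79, 1.69 and 1.11.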

How the data were processed

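Gene counts came from RNA of mouse bone marrow-derived dendritic cells, made into cDNA with template switching, pooled and sequenced on a NextSeq 550, per the labels' protocols. The authors deposited 1 table of whole-number UMI counts (unique molecular identifiers, 1 per captured molecule) for 23481 genes in 192 libraries. The submitters' processing notes name BWA 0.7.15 and mm10. The annotation, the rule for collapsing identifiers and the use of strand are not given in the sources used here.

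Counts were fitted with edgeR 4.0.16 (limma 3.58.1, R 4.3.3) by a quasi-likelihood F-test with TMM factors over all 64 groups of 3, with 128 residual degrees of freedom, on the 4720 genes kept by filterByExpr, which hold 95.7% of the counts. P-values were adjusted by Benjamini-Hochberg over all tested genes, and every adjusted p in the text is from this fit unless another tool is named. For genes above or below both ligands the larger of both p-values was adjusted. Intervals of count ratios are exact 95% intervals and cover counting error only, as does the floor of 3 counts.

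Named genes were a fixed set, the 12 largest differences above both with at least 20 CPM, the genes below both, the 8 largest differences between the single ligands in each direction and the 5 furthest under each, with at least 50 CPM, the 3 largest interactions in each direction, and members of the 22 lists. The members and lists were chosen with earlier results of these data known. Members of the 35 outside the named set were described after their values were seen. Alternatives were RLE factors, library size alone, no filter, thinning, a fit of the contrasted groups alone, a replicate block, DESeq2 1.42.0, no fold threshold and libraries left out.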

Additional observations from a re-analysis of the deposited data

How the results depend on the processing

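With every library thinned to 46564 counts, 134 genes were called against cGAMP (108 higher, 26 lower), 150 against CpGB (122 higher, 28 lower) and 305 between the single ligands, 23 genes were above both and 1 below both, 119 had an interaction and 9 genes above both were repeated with all 3 HMW triplet libraries, with a median position of 0.760 for genes led by CpGB. Library size alone gave 19 above both, 13 below both, positions of 0.575 and 0.595 and 9 repeated with HMW, and RLE size factors gave 9 below both and positions of 0.653 and 0.663. After centring on the median of all genes, an alternative chosen after seeing the data, 11 and 7 were below both and 28 and 31 above both under these 2 scalings. DESeq2 gave 22 above both and positions of 0.671 and 0.677. Without a fold threshold 590 genes were called against CpGB, 68 were above both and 8 below both, and the position was 0.706 for genes led by cGAMP. Without the filter on low counts the positions were 0.709 and 0.747. Among genes of at least 200 CPM, also chosen after seeing the data, they were 0.763 and 0.736, and in the HMW libraries without the triplet library that stands apart the position for genes led by CpGB was 0.680. The cause of these shifts was not tested.

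Leaving out replicates 1, 2 or 3 of every group, or 1 library, gave 237 to 338 genes against cGAMP, 241 to 365 against CpGB, 469 to 647 between the single ligands, 23 to 36 above both, 2 to 6 below both, positions of 0.643 to 0.764 and 0.676 to 0.739, 185 to 284 interactions, and 5 to 22 genes repeated with HMW. The lowest counts came without replicate 2 of every group for genes above both, and without replicate 3 of every group against CpGB, for interactions and for HMW. The count below both was 2 without pair replicate 2, without CpGB replicate 2 and without replicate 3 of every group. For single genes, only comparisons called in the reported fit were tallied under the alternatives, most of which reuse the same libraries. Of these values 2788 kept the call, 271 lost it in the same direction and 0 reversed.

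Replicate numbers did not pair the samples: the deviations of same-numbered libraries correlated at -0.03 to 0.09 over 1514 genes. With a replicate block, 337 genes were called against cGAMP, 367 against CpGB and 655 between the single ligands, 36 were above both and 5 below both, with Gbp6 at 0.99 against CpGB and so under 2-fold, the positions were 0.690 and 0.696, 298 genes had an interaction and 15 were repeated with HMW.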
